A study of Mus musculus with 4 samples.

Results

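Single-cell RNA of skin treated with MC903 for 9 days was compared with that of untreated skin. A called barcode was taken as a cell if 300 or more genes were seen in it and no more than 15% of its UMIs were mitochondrial, where a UMI is a molecular tag that counts 1 captured transcript. This kept 3843 cells of the MC903 library and 7702 of the untreated library, 11545 of the 27755 such cells in all 4 libraries of the study. Both libraries came from female C57BL/6J mice aged 6 to 8 weeks, and each pooled the ear and neck skin of 3 mice. MC903 mice received 1 nmol calcipotriol in 100 µL ethanol on the ear and neck every day for 9 days, after the neck had been shaved 1 day before the first dose. The reference mice were labelled untreated, and no library of ethanol-treated skin was analysed here, so effects of ethanol and of MC903 cannot be told apart. Cells were released with a collagenase that the submitters chose to find more fibroblasts, dead cells were removed, and libraries were made with the 10x Genomics 3′ v3.1 chemistry.

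MC903 (calcipotriol) is an analog of the active form of vitamin D. The vitamin D receptor, encoded by Vdr, is a nuclear receptor that pairs with retinoid X receptors and switches on target genes, of which Cyp24a1, the enzyme that breaks down vitamin D, is the classic one. On mouse skin MC903 is widely used to raise a dermatitis with type 2 features: the keratinocyte cytokine TSLP, basophils, eosinophils and T cells, and the cytokines IL-4 and IL-13, which signal through the receptor chains IL-4Rα and IL-13Rα1 and the transcription factor STAT6. The questions here were which cells the MC903 library held, which of them carried the transcripts of these pathways, and how expression within a kind of cell differed between the libraries.

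With 1 library in each group there was no spread between replicates. No difference was tested, every difference below has no replicate check, and all 95% intervals (exact binomial for shares and ratios) cover counting error only. The kept cells held 92728624 UMIs in the untreated and 72428308 in the MC903 library. The median cell had 10459 and 14639 UMIs and 2.43% and 1.63% mitochondrial UMIs, and 5 barcodes occurred in both libraries. The file headers name Cell Ranger 7.2.0 for the untreated and 8.0.0 for the MC903 library, so the effects of software version and treatment cannot be told apart. Levels are given as CPM, the summed UMIs of a gene scaled to the same library total. A gene counted as measured if the pair held 30 or more of its UMIs, and measured genes are called higher or lower when the levels differed by 2-fold or more. In a whole library, fewer cells of a type and less RNA per cell cannot be told apart. Cells were therefore also assigned to marker gates: a cell joined the class with most of its 6 markers seen, if at least 3 were seen and no other class had as many.

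Neutrophil and basophil gates took far larger shares of the MC903 library, and keratinocyte and gamma delta T gates far smaller ones. The neutrophil gate held 15 of 7702 untreated cells (0.195%) and 330 of 3843 MC903 cells (8.59%), a ratio of 44.1 (interval 26.3 to 79.7). The basophil gate went from 7 cells (0.0909%) to 52 (1.35%), a ratio of 14.9 (6.74 to 38.9), and the untreated share was 0.0277% with doublets removed. The mast gate held 0.286% and 0.989% of cells, the alpha beta T gate 0.558% and 2.26%. No cell of either library passed the eosinophil gate, which allows up to 0.0479% of untreated and 0.0959% of MC903 cells to pass it (exact 95% limits). Whether the gate would catch eosinophils in these libraries was not tested, so this sets no limit on eosinophils in the skin.

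Among the tissue's own cells, the keratinocyte gate held 1949 untreated cells (25.3%) and 125 MC903 cells (3.25%), 0.129 times the share (0.106 to 0.154). The gamma delta T gate, which in mouse skin is filled mostly by T cells resident in the epidermis, held 595 cells (7.73%) and 57 (1.48%). Langerhans cells, the epidermis's dendritic cells, were 45 (0.584%) and 5 (0.130%), and melanocytes 181 (2.35%) and 49 (1.28%). Gates of deeper tissue went both ways. The chondrocyte gate, which ear cartilage fills, held 539 cells (7.0%) and 170 (4.42%), 0.632 times the share (0.529 to 0.752). Larger shares were held by the gates fibroblast, with 26.9% and 30.2%, mural (pericytes and vascular smooth muscle), with 3.34% and 5.23%, blood endothelial, with 0.325% and 1.14%, and Schwann, with 1.52% and 6.06%. Cells with Angptl7, described further on, took 2.18% and 5.93%.

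**Figure D1:**
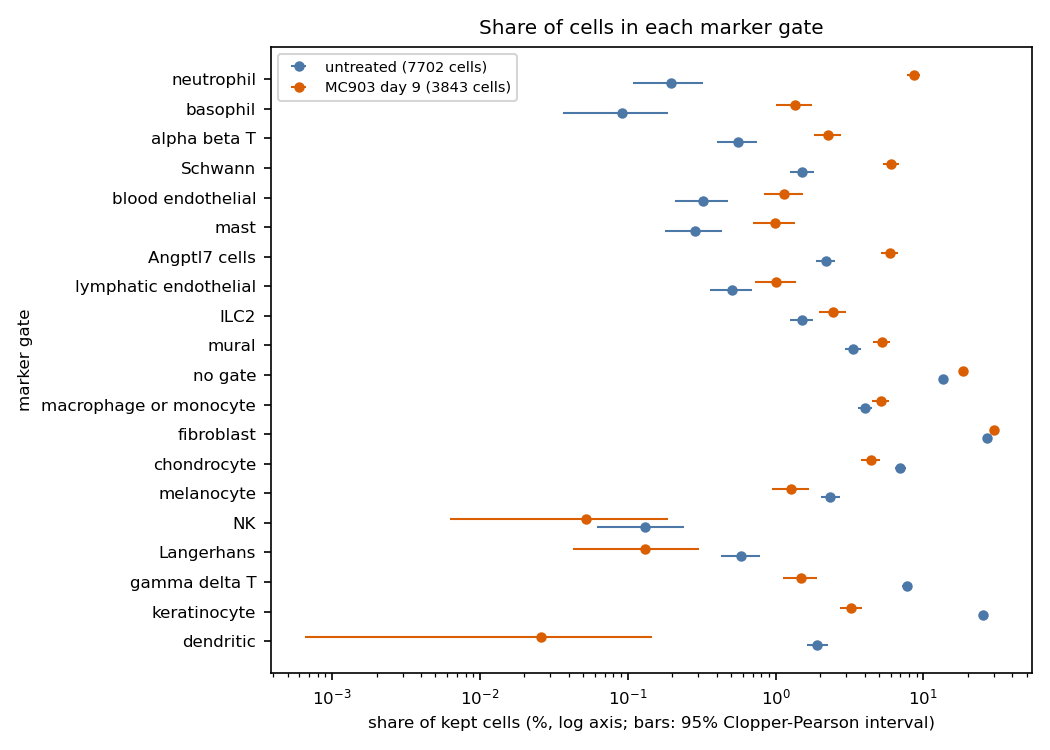
Share of kept cells in each marker gate, in percent on a log axis, with bars for exact 95% intervals (blue, untreated; orange, MC903 day 9). Gates with cells in both libraries are drawn, ordered by the ratio of shares: neutrophils are at the top (0.195% and 8.59%), and keratinocytes (25.3% and 3.25%) and the dendritic gate, which may have missed cells, are at the bottom.

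Some gates need care. The dendritic gate held 148 untreated cells and 1 MC903 cell, but 93.7% of the 367 UMIs of the dendritic cell chemokine Ccl22 with MC903 came from 3 cells outside every gate. In untreated skin 18 cells outside every gate held 96 of the 414 Ccl22 UMIs. How many dendritic cells the gate missed in either library was not tested, and its shares were not compared. No gate took 13.6% of untreated and 18.5% of MC903 cells. The adipocyte gate held 0 untreated cells (an upper limit of 0.0479%) and 18 MC903 cells (0.468%). In the same direction, the fat cell genes Cfd (8 and 13795 UMIs), Adipoq (1 and 490 UMIs) and Cyp2e1 (1 and 755 UMIs) were among the 5 highest ratios of the whole libraries over genes whose higher side had 200 or more UMIs. The median cell of the main gates also had more UMIs with MC903: 12337 and 23421 in the fibroblast gate, 14821 and 41858 in the keratinocyte gate, and 10795 and 24263 in the macrophage or monocyte gate.

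Cyp24a1, the vitamin D target gene, was seen with MC903 and not in untreated skin. The untreated library held 0 UMIs of it in 92728624, and the MC903 library held 4221, or 58.3 CPM, at least 1801-fold higher when the zero is replaced by a floor of 3 UMIs. The oxazolone libraries of the same study held 14 and 1 UMIs. Cyp24a1 lies on chromosome 2, from 170482708 to 170497145 on the minus strand (GRCm38, GENCODE vM21). Fibroblasts carried more of its transcripts than keratinocytes did: 2191 UMIs (51.9%, interval 50.4 to 53.4) were in the fibroblast gate and 982 (23.3%) in the keratinocyte gate. Per cell the order was the reverse, with Cyp24a1 at 177 CPM and in 75 of 125 cells of the keratinocyte gate, against 72.0 CPM and 136 of 1160 cells of the fibroblast gate. The share of cells with a Cyp24a1 UMI was 60.0% in the keratinocyte gate, 11.7% in the fibroblast gate and 0.429% in the Schwann gate, whose median cell had 5841 UMIs. After every cell was thinned to 3000 UMIs, which left out 3, 63 and 15 shallower cells, the shares were 27.9%, 5.74% and 0.459%. In the macrophage gate 5 cells held 93.9% of its 263 UMIs.

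The receptor itself was not distributed in the same way. In untreated skin 80.9% of Vdr UMIs were in the keratinocyte gate, and with MC903 18.1% were, while 39.1% were in the fibroblast gate. Vdr stood at 148 and 83.6 CPM in the keratinocyte gate (log2 ratio −0.83, interval −0.97 to −0.69), at 20.7 and 32.9 CPM in the fibroblast gate (0.67) and at 9.96 and 82.1 CPM in the macrophage gate (3.04, interval 2.55 to 3.58). Of the 12 measured genes of the vitamin D pathway list, 5 were higher and 1 lower in the whole libraries, with a median log2 ratio of 0.35. Of all 19505 measured genes, 12.4% were higher and 12.4% lower, and the median was −0.04. The members that were higher were Cyp24a1, Cyp27b1, Spp1, S100g and Cd14, and Trpv6 was lower. S100g is a calcium-binding protein induced by vitamin D and had 16 and 305 UMIs. Cd14, a co-receptor for bacterial lipopolysaccharide, had 515 and 17599 UMIs. Of the S100g UMIs with MC903, 68.2% were in the fibroblast gate, in 35 cells of which 5 held 76.9%. Of the Cd14 UMIs, 61.5% were in the neutrophil gate.

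Most transcripts of the type 2 cytokine Il4 in MC903 skin were in the basophil gate. Its UMIs numbered 77 in the untreated library (0.83 CPM) and 3842 in the MC903 library (53.0 CPM), a log2 ratio of 6.00 (5.67 to 6.34). With MC903 80.0% of them (78.7 to 81.3) lay in the basophil gate, where Il4 reached 5800 CPM in 45 of 52 cells. The share in the gate was 49.5% when 4 of the 6 markers had to be seen. The keratinocyte (4.19%) and mast (3.20%) gates were next among named gates, and in the keratinocyte gate 5 cells held 98.1% of the Il4 UMIs. In untreated skin the few Il4 UMIs were spread over the mast (28.6%), ILC2 (20.8%) and basophil (19.5%) gates. Il13 had 114 and 607 UMIs, and its largest holder was the gamma delta T gate in untreated skin (49.1%) and the basophil gate with MC903 (78.3%, or 55.8% with 4 of 6 markers). In that MC903 gate Il13 was in 25 of 52 cells. There 5 cells held 73.1% of the Il13 UMIs, and 5 held 55.4% of the Il4 UMIs.

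The same gate also held cytokines that are less tied to type 2 responses. Il6 and Csf2 were chosen for mention after their values were seen. Il6 had 1108 and 4825 UMIs, and its main holder was the fibroblast gate in untreated skin (67.0%) and the basophil gate with MC903 (48.4%, 4410 CPM in 40 of 52 cells). Fibroblast-gate Il6 itself was 27.1 and 28.7 CPM. Ccl3, a chemokine for monocytes and granulocytes, had 620 and 24723 UMIs (log2 ratio 5.67), of which 45.0% were in the basophil gate with MC903, in 52 of 52 cells. The myeloid growth factor Csf2 had 156 and 194 UMIs, with 59.0% in the ILC2 gate in untreated skin and 81.4% in 5 cells of the basophil gate with MC903. Il5, the eosinophil growth factor, had 195 and 10 UMIs (log2 ratio −3.93, interval −5.01 to −3.02), and 90.3% of the untreated UMIs came from 10 ILC2-gate cells. Of these 10 cells 5 held 96.6% of the gate's Il5 UMIs, so the lower value with MC903 rests on few untreated cells. Of the 9 measured type 2 and effector cytokines 6 were higher and 2, Il5 and Areg, were lower, with a median of 1.71.

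**Figure D2:**
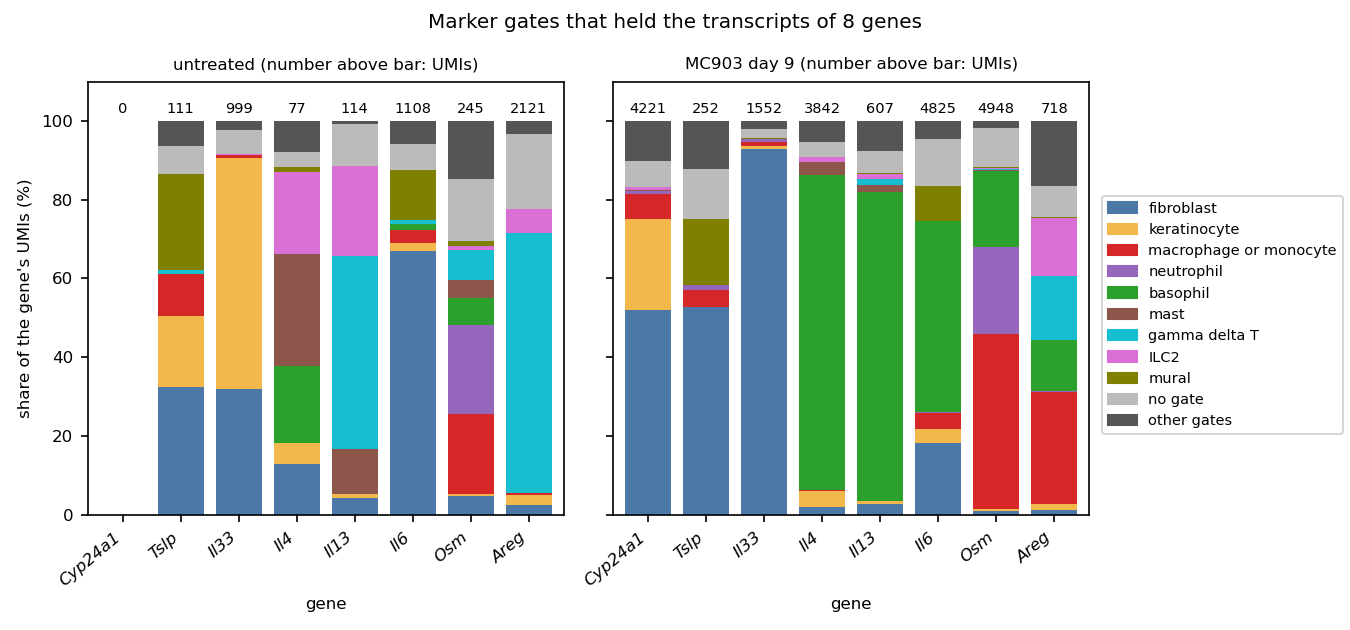
Share of each gene's UMIs held by each marker gate, in percent, in the untreated (left) and MC903 day 9 library (right), with the number of UMIs above each bar. Il4 and Il13 are mostly green (basophil gate: 80.0% and 78.3%) with MC903, Il33 is mostly blue (fibroblast gate: 92.8%), and Cyp24a1 has 0 untreated UMIs and therefore no bar on the left.

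Of the alarmins, cytokines released by barrier and stromal cells that set off type 2 responses, Tslp was higher and Il33 just under 2-fold higher. With MC903 the fibroblast gate was the largest holder of both. The list of alarmins and IL-1 family ligands had 5 of 9 measured members higher and 2 lower, with a median of 1.54. Among all measured genes 12.4% were higher and 12.4% lower. Tslp had 111 and 252 UMIs (1.20 and 3.48 CPM, log2 ratio 1.54, interval 1.21 to 1.88), of which the fibroblast gate held 32.4% and 52.8% and the keratinocyte gate 18.0% of the untreated ones. Tslp stood higher in CPM with MC903 in the lymphatic endothelial gate (21.2 CPM, in 9 of 39 cells) and the mural gate (14.9 CPM, against 12.6 untreated) than in the fibroblast gate (4.37 CPM). Il33 had 999 and 1552 UMIs (log2 ratio 0.99), and its main holder was the keratinocyte gate in untreated skin (58.6%) and the fibroblast gate with MC903 (92.8%). Both sides of that shift were seen within gates: Il33 was 18.4 and 2.16 CPM in the keratinocyte gate (log2 ratio −3.09, interval −4.05 to −2.27, in 281 of 1949 and 9 of 125 cells) and 11.7 and 47.3 CPM in the fibroblast gate (2.02, interval 1.85 to 2.20).

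Neutrophil proteins, the IL-1 cytokines and neutrophil chemokines were higher in the MC903 library, and they were held by several gates. The neutrophil proteins S100a8 and S100a9 were at 10.0 and 2032 CPM and at 13.4 and 3181 CPM. S100a9 had a UMI in 1495 of 3843 MC903 cells although 330 passed the neutrophil gate, and the part of free RNA in this was not tested. Il1a had 10 and 3331 UMIs (log2 ratio 8.74) and Il1b 2992 and 37915, with 57.6% and 58.6% of the MC903 UMIs in the neutrophil gate. The list of CXC chemokines also holds the myeloid growth factors Csf3, Csf1 and Il34, and of its 15 measured members 13 were higher and 0 lower, with a median of 2.27. Cxcl3 (20 and 6384 UMIs) and Cxcl5 (10 and 1597 UMIs), which draw neutrophils, were among the highest, together with Csf3, of which the untreated library held 0 UMIs and the MC903 library 313. Of the Cxcl5 UMIs with MC903, 98.9% were in the fibroblast gate. Of the Csf3 UMIs, 40.9% were in the neutrophil and 33.9% in the blood endothelial gate. Osm, the cytokine oncostatin M, had 245 and 4948 UMIs (log2 ratio 4.69) and was shared by the macrophage (44.4%), neutrophil (22.2%) and basophil (19.2%) gates.

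Further lists held markers of the gates themselves. Beside them, 12.4% of all measured genes of the whole libraries were higher and 12.4% lower. All 11 measured mast cell and basophil proteases and surface markers were higher, with a median of 3.52, among them Mcpt8 (38 and 2088 UMIs) and Prss34 (1 and 116 UMIs, 5 cells holding 95.7%), both basophil proteases, and the mast cell tryptase Tpsb2 (2.16 and 65.1 CPM). Of 16 cell cycle genes 15 were lower and 0 higher (median −1.75), with the mitotic genes Cenpf at 39.8 and 5.67 CPM and Top2a at 86.4 and 16.1 CPM. Gates that measured all 16 differed: 10 were lower and 0 higher in the keratinocyte gate, 3 and 1 in the fibroblast gate and 3 and 0 in the macrophage gate. In the ILC2 gate 0 were lower and 4 higher of 8. Of 15 measured genes of the cornified envelope and late keratinocyte differentiation 12 were lower and 2, Asprv1 and Tgm1, were higher. The epidermal keratin Krt2 had 1485 and 1 UMIs, and the antimicrobial peptide Defb6 stood at 269 and 0.856 CPM. Ccl20, the ligand of Ccr6, had 764 and 2 UMIs. Flg, the filaggrin gene of the cornified layer, was below the minimum for measurement. The selectins Sele (1.84 and 24.9 CPM) and Selp (1.62 and 19.5 CPM), with which activated endothelium slows leukocytes, were among the 6 of 13 endothelial activation genes that were higher, with 0 lower. With MC903 5 cells held 63.1% of the Sele UMIs and 69.4% of the Selp UMIs (86.5% and 75.3% in untreated skin). For Esm1, also higher, 5 cells held 91.1% of the 248 MC903 UMIs.

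Within the fibroblast gate (2070 untreated and 1160 MC903 cells), Cxcl13, the acute phase genes Saa3 and Hp and several complement genes were higher with MC903 and the main collagens lower. Of 15619 measured genes 8.56% were higher and 11.8% lower, with a median log2 ratio of 0.00. The B cell and lymphoid chemokine Cxcl13 (chromosome 5, 95956951 to 95961068, plus strand, same build) was at 11.7 CPM in untreated and 939 CPM in MC903 cells, a log2 ratio of 6.32 (6.17 to 6.49). It was in 42 of 2070 and 269 of 1160 cells, and the 5 highest cells held 11.3% of it, so a wide minority of cells carried it. The shares of cells with a Cxcl13 UMI were 2.03% and 23.2%, and 2.15% in the Schwann gate with MC903. After thinning to 3000 UMIs they were 0.755% (0.423 to 1.24) and 16.1% (14.0 to 18.4), and 1.38% in the Schwann gate. Cxcl12, the ligand of Cxcr4, was at 267 and 723 CPM (1.43). Of 13 measured members of the list of CXC chemokines and myeloid growth factors 8 were higher and 1, the growth factor Il34, was lower, with a median of 1.43. CC chemokines were mostly within 2-fold, with 4 higher, 2 lower and 8 between of 14 (median 0.20).

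The acute phase genes Saa3 (0.292 and 163 CPM) and Hp, or haptoglobin (0.183 and 96.9 CPM), had log2 ratios of 9.12 and 9.05, next after Cyp24a1 among genes that reached 200 UMIs on the higher side. They were in 85 and 177 of the 1160 MC903 cells, and 5 cells held 51.7% of the Saa3 UMIs. Lcn2, an iron-sequestering antimicrobial protein, was at 0.292 and 20.8 CPM, in 168 cells. The neutrophil chemokine Cxcl5 was at 0.256 and 51.9 CPM, with 57.3% of its UMIs in 5 of 47 positive cells. Neutrophil markers moved in the same gate: the 6 summed to 5.11 and 293 CPM, 5 of them at least 2-fold higher, and 5 cells held 72.5% of the S100a9 UMIs. Whether these cells contributed to the acute phase and Cxcl5 values was not tested.

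Complement genes were higher in 6 and lower in 1 of 13 measured members (median 0.86). C7, a part of the membrane attack complex, was at 4.45 and 93.4 CPM (log2 ratio 4.39), in 28 and 118 cells. The member that was lower, Cd55, is an inhibitor bound to the cell surface, at 190 and 32.6 CPM (−2.54).

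Of 24 collagen and matrix genes 10 were lower and 3, Lox, Fmod and Col12a1, were higher (1 with every cell given equal weight), with a median of −0.89. Type I and type III collagen, the bulk of dermal fibres, were lower, Col1a1 at 8203 and 3036 CPM (−1.43) and Col3a1 at 7162 and 2731 CPM (−1.39). Both are among the 6 markers of the gate, so cells with none of their UMIs were less likely to enter it. Col15a1, a basement membrane collagen, was at 181 and 24.3 CPM (−2.90, in 1254 and 162 cells). Lox, the enzyme that crosslinks collagen, went the other way at 144 and 986 CPM (2.78, interval 2.73 to 2.83) and was found in 986 of 2070 and 1049 of 1160 cells. Of 19 metalloproteases and inhibitors 7 were higher (4 with every cell given equal weight) and 2, Mmp12 and Mmp27, were lower (1 with doublets removed). Timp1, an inhibitor of metalloproteases, was at 35.4 and 203 CPM, Adamts4, which cleaves aggrecan, at 17.2 and 68.9 CPM, and Mmp27 at 42.1 and 10.4 CPM. Of 11 contractile genes, which mark myofibroblasts and smooth muscle, 0 were higher and 3 were lower: Myh11, Des and Lmod1. Mural markers in the gate summed to 99.5 and 61.4 CPM.

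Of 20 genes that mark kinds of fibroblasts, 4 were higher and 9 lower (median −0.63). Inmt, a methyltransferase, was at 21.8 and 262 CPM (3.59) and was in 194 of 2070 and 514 of 1160 cells. Cdh4, a cadherin, was at 238 and 8.83 CPM (−4.75, interval −4.93 to −4.58), in 844 and 90 cells, and Ntng1, an axon guidance protein, at 150 and 21.7 CPM (−2.79). Prg4, or lubricin, and the calcification inhibitor Mgp were higher, at 47.6 and 509 CPM and at 300 and 1536 CPM. The BMP ligand Bmp6 (22.0 and 3.35 CPM) and the BMP antagonist Grem1 (47.9 and 10.4 CPM) were both lower. Periostin (Postn), often used as a readout of IL-13, was lower in this gate, at 1567 and 773 CPM (−1.02), and so was Cilp, at 713 and 228 CPM (−1.64).

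Of 16 measured receptor genes for alarmins and type 2 cytokines 7 were higher and 1 lower in the fibroblast gate, with a median of 0.17. Among all genes of the gate 8.56% were higher and 11.8% lower. Osmr, the receptor of oncostatin M, was at 98.5 and 221 CPM in the fibroblast gate (1.17), with a UMI in 52.7% and 82.6% of cells, or 20.7% and 41.5% after thinning. Il13ra1 was at 80.0 and 103 CPM (0.37) and Il4ra at 38.9 and 35.9 CPM, a log2 ratio of −0.12 whose interval (−0.24 to 0.01) included 0. The eosinophil chemokine Ccl11 was at 176 and 212 CPM (0.27) and Tslp at 1.31 and 4.37 CPM (1.73). Of the 18 genes that tissue dissociation induces, 0 were higher and 0 lower in this gate. Traces of other cells went both ways. With MC903 the sums were smaller for the 6 keratinocyte markers (74.2 and 9.75 CPM) and the 6 gamma delta T markers (40.2 and 2.56 CPM). They were larger for the neutrophil markers (5.11 and 293 CPM) and the Schwann markers (34.9 and 53.2 CPM), among others. Antigen presentation genes, which dendritic cells and macrophages carry in quantity, were lower in 9 and higher in 0 of 16. H2-Aa was at 91.6 and 7.78 CPM while dendritic markers summed to 17.3 and 5.75 CPM, and their part in the result was not tested.

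**Figure D3:**
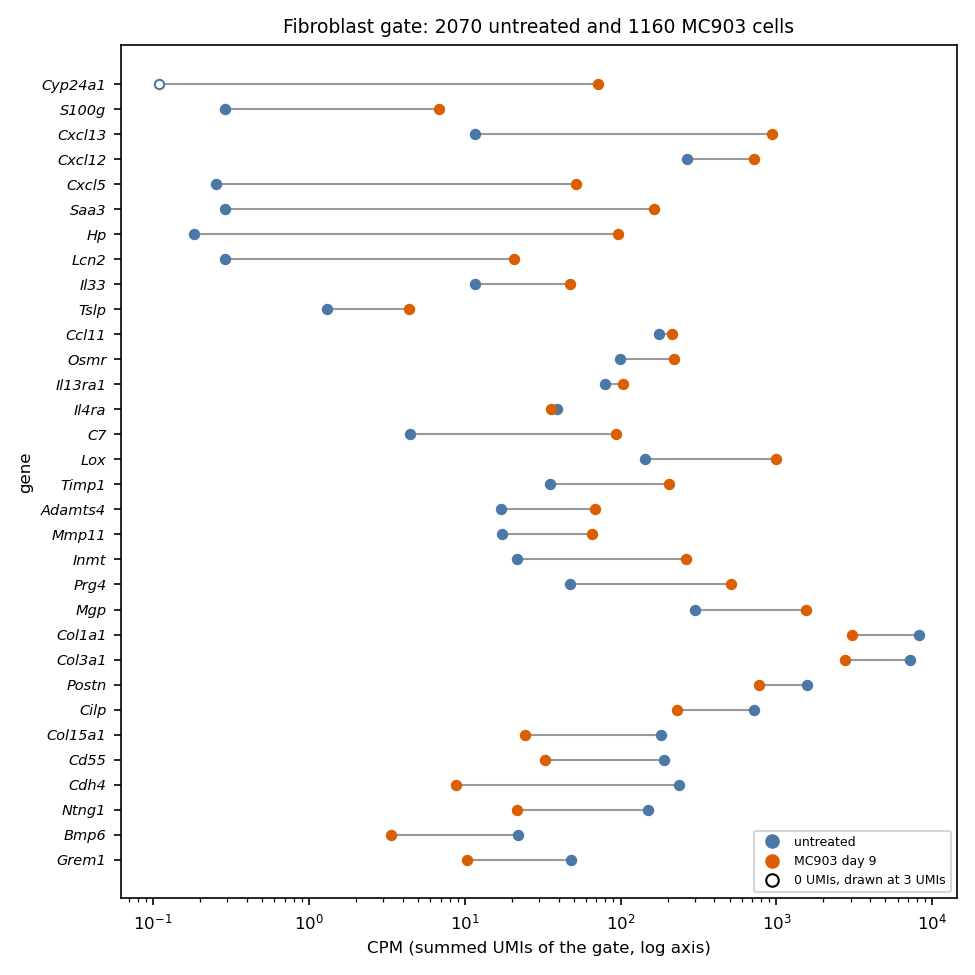
CPM of the genes named on the vertical axis in the fibroblast gate on a log axis, from summed UMIs of the untreated cells (blue) and MC903 day 9 cells (orange), with an open point where a library held 0 UMIs and the floor of 3 is drawn. Cytokine, acute phase and complement genes from Cyp24a1 to C7 lie mostly to the right with MC903, while Il4ra is nearly level (38.9 and 35.9 CPM) and the collagens, Cd55 and Cdh4 to Grem1 lie to the left.

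In the macrophage or monocyte gate (310 and 198 cells) the arginine-consuming enzyme Arg1, a classic gene of IL-4-activated mouse macrophages, went from 5 UMIs in 1 cell to 13224 UMIs in 92 of 198 cells. This is 1.38 and 2535 CPM, a log2 ratio of 10.84 (9.62 to 12.46). Arg1 lies on chromosome 10 (24915221 to 24927484, minus strand). Chil3, a chitinase-like protein, was at 68.3 and 2938 CPM (5.43, in 21 and 114 cells), and the eosinophil chemokine Ccl24 at 67.8 and 1929 CPM (4.83, in 22 and 83 cells). Slc7a2, a transporter that brings arginine into the cell, was at 2.49 and 321 CPM (7.01, in 82 cells, of which 5 held 52.2%).

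The list of IL-4 and IL-13 targets, which holds these genes, was divided. Of 16 measured members 6 were higher and 6 lower, with a median of 0.60 (3 lower when 100 UMIs were required), against 9.78% higher and 12.3% lower among all 10623 measured genes. Fcer2a, the low-affinity IgE receptor, had 41 UMIs in untreated and 0 in MC903 cells, and 5 of its 8 positive cells held 92.7% of them. Retnla, another standard gene of IL-4-activated macrophages, had 11 and 208 UMIs, but 5 of its 7 positive MC903 cells held 98.6% of them; it was chosen for mention after its values were seen. The receptor chains also parted: Il4ra was at 38.5 and 213 CPM (2.47, in 94 of 310 and 164 of 198 cells), Il13ra1 at 172 and 74.2 CPM (−1.21), and Il1rl1, the IL-33 receptor, at 55.3 and 1.92 CPM (−4.85).

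The promoters of Retnla and Chil3 are shown because both genes were higher in the gate while only the first promoter holds the palindromic STAT6 recognition sequence TTCNNNNGAA. The sequences run from 250 bases before to 50 bases after the gene start (RefSeq, GRCm38.p6), and capitals mark the match. The Retnla window is chr16:48842359-48842658 on the plus strand, with the match beginning 145 bases before the start, and the Chil3 window is chr3:106167515-106167814 on the minus strand.
Retnla: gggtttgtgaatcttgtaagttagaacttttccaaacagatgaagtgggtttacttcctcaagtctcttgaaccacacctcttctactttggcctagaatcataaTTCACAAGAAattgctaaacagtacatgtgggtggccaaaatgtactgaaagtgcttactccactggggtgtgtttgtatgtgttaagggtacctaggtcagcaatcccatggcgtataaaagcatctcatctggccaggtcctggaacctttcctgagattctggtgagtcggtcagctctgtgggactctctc
Chil3: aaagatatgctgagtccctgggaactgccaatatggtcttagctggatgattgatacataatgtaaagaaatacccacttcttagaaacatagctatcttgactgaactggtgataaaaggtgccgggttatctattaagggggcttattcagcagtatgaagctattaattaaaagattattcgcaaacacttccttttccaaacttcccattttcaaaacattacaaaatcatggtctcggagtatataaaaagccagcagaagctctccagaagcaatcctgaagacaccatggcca
Of the 18 genes of the list 13 were matched in the table, and 4 of them (Retnla, Ccl17, Fcer2a and Pdcd1lg2) held the motif in a promoter of this length. Of all 32851 promoters 2284 (6.95%) held it, on both strands at once because it is palindromic. This share counts promoters, while the list count is of genes with a match in any of their promoters (1 of 3 for Fcer2a). The list count and this share are therefore not directly comparable. A match describes letters only, and Fcer2a, with a match, was lower in the gate.

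Genes of glycolysis and hypoxia were mostly higher in the macrophage gate. Of 17 measured genes of glycolysis and hypoxia 14 were higher and 0 lower, with a median of 1.87 against −0.03 for all genes. Vegfa, the vessel growth factor, was at 5.81 and 191 CPM (5.04, in 89 of 198 cells), and Bnip3, a mitophagy gene induced by low oxygen, at 17.7 and 115 CPM (2.70). Hbegf, a ligand of the EGF receptor, was at 6.92 and 258 CPM (5.22, in 101 cells), and Areg, another, at 3.04 and 39.3 CPM in 18 cells. The matricellular list was divided, with 2 higher, 3 lower (Postn, Ccn1 and Aspn) and 1 between of 6 (median −0.65). Of 8 angiogenesis genes 3 (Vegfa, Pgf and Kdr) were higher and 1, Flt1, was lower (median 0.51). The higher matricellular genes were Thbs1 and Spp1: Thbs1, a matricellular protein that activates latent TGF-beta, was at 28.8 and 1141 CPM (5.31, in 123 cells), and Spp1, or osteopontin, at 14.1 and 678 CPM (5.59, in 62 cells). The activin subunit Inhba was at 1.66 and 407 CPM (7.94, in 47 cells). The collagenase Mmp13 was at 1.94 and 578 CPM (8.22), but 5 cells held 74.3% of it. For Areg, Spp1 and Inhba 5 cells held 68.8%, 55.4% and 53.1% of the gate's MC903 UMIs.

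Inflammatory mediators were higher in the same cells. Ptgs2, the inducible prostaglandin synthase, was at 34.3 and 1470 CPM (5.42, in 112 cells), Osm at 13.8 and 421 CPM (4.93, in 138 of 198 cells) and Il1rn, the IL-1 receptor antagonist, at 21.9 and 353 CPM (4.01). Of 9 measured members of the CXC chemokine and growth factor list 8 were higher and 1, Cxcl13, was lower, and of 13 CC chemokines 10 were higher and 1, Ccl22, was lower. The lower level of Cxcl13 rested on 1 untreated cell with 51 UMIs, against 19 UMIs with MC903, and the share of cells with a UMI went the other way, at 0.323% and 8.08%, or 0.331% and 2.04% after thinning. Of 17 interferon-stimulated genes 8 were higher and 0 lower. Class II antigen presentation was lower: the master regulator Ciita was at 232 and 28.2 CPM (−3.04) and H2-Eb1 at 5431 and 1194 CPM (−2.19). The genes with the lowest ratios, Adam23 (480 and 0.575 CPM, in 96 and 3 cells), Frmd5 and Negr1, were each in at most 3 MC903 cells.

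Collagen and matrix genes were lower in 15 and higher in 1, Fn1, of 17, and markers of other cells differed within the gate as well. The 6 dendritic markers summed to 644 and 137 CPM, with 4 at least 2-fold lower and 2 higher, the neutrophil markers to 37.6 and 643 CPM and the fibroblast markers to 730 and 31.4 CPM. In untreated cells 5 cells held 93.3% of the Col1a1 UMIs. The part of dendritic-like cells in the class II values, and of neutrophils in those of Cxcl3, S100a8 and the other neutrophil genes, was not tested. Arg1 with MC903 was in 46.5% of the gate's cells and in 4.66% of fibroblast-gate cells, whose median depth was similar (24263 and 23421 UMIs), or in 34.7% and 0.638% after thinning. The leading genes of the gate also differed, with C1qa, C1qb, C1qc, Pf4 and Lyz2 first in untreated cells and Arg1, Ccl24, Mrc1, Chil3 and Mmp13 first with MC903.

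**Figure D4:**
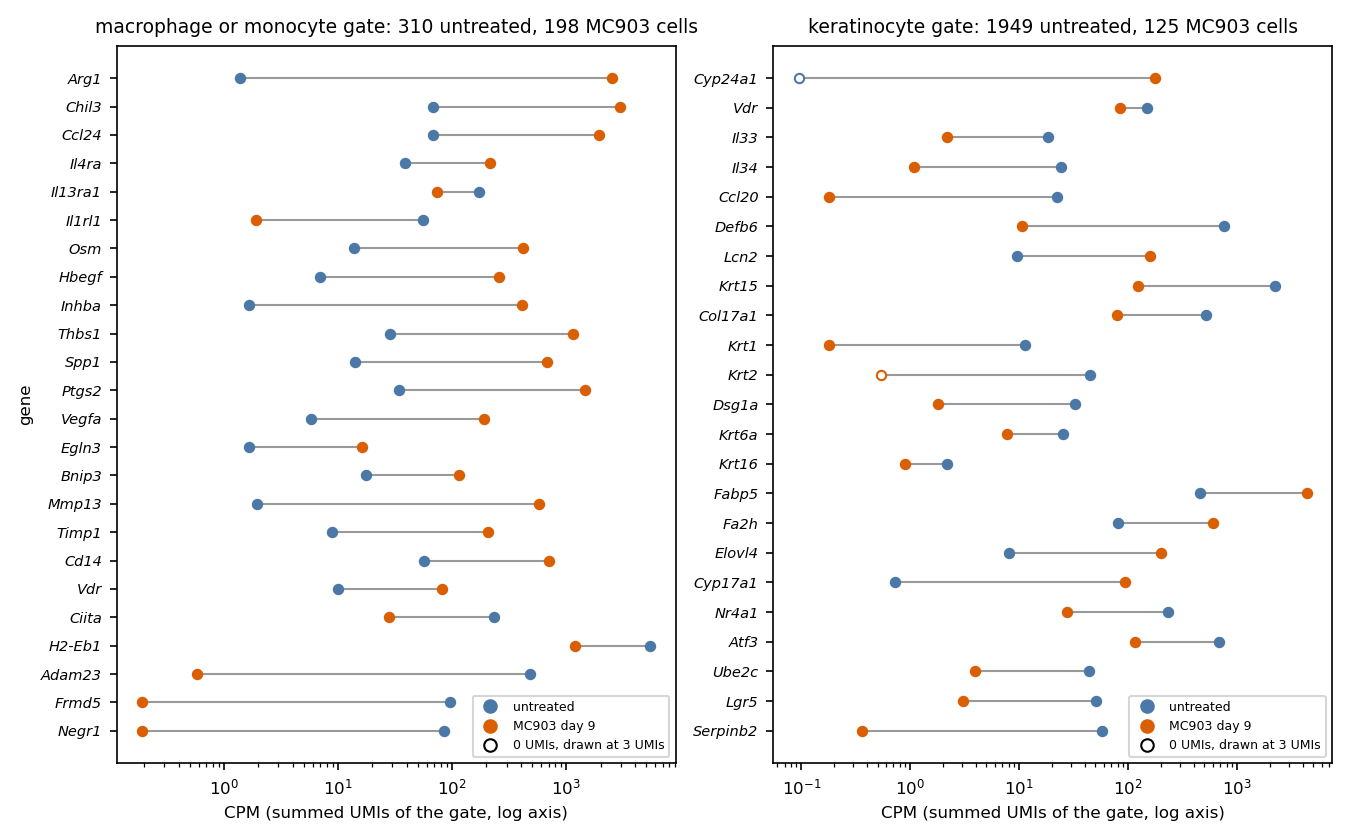
CPM of 24 genes in the macrophage or monocyte gate (left) and 23 in the keratinocyte gate (right) on log axes, from summed UMIs of the untreated (blue) and MC903 day 9 cells (orange), with an open point for 0 UMIs drawn at the floor of 3. In macrophages Arg1 spans the widest gap (1.38 and 2535 CPM) and Il13ra1, Il1rl1 and Ciita lie lower with MC903, while in keratinocytes most differentiation and basal genes lie lower and Cyp24a1, Lcn2 and lipid genes higher.

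The keratinocyte gate held few MC903 cells (125, against 1949), and in these the lists of basal and of late differentiation genes were both mostly lower. Of 14299 measured genes 5.33% were higher and 17.9% lower. Basal genes were lower in 8 and higher in 0 of 14 (median −1.04), among them the basal and bulge keratin Krt15 at 2206 and 122 CPM (−4.17, in 1721 and 59 cells) and the hemidesmosome collagen Col17a1 at 520 and 79.5 CPM (−2.71). Genes of the cornified envelope and late differentiation were lower in 10 and higher in 1 of 15, the crosslinking enzyme Tgm1 (median −1.70), which was not counted as higher with doublets removed. Krt1 was at 11.2 and 0.18 CPM, Krt2 had 1435 and 0 UMIs, at least 83.3-fold lower against the floor, and the desmosomal cadherin Dsg1a was at 32.2 and 1.80 CPM.

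Of 8 measured keratins and related genes of wounded and stressed epidermis 5 were lower and 1, Stfa1, was higher. Krt6a was at 25.0 and 7.75 CPM (−1.69) and Krt16, in 2 MC903 cells, at 2.17 and 0.901 CPM, a log2 ratio of −1.27 with an interval (−2.93 to 0.03) that included 0. Cell cycle genes were lower in 10 and higher in 0 of 16, with Ube2c at 43.8 and 3.96 CPM. Chemokine and antimicrobial lists went both ways, with 5 higher and 4 lower of 11 CC chemokines, 3 and 3 of 11 on the CXC list and 3 and 3 of 7 antimicrobial genes. Among the lower genes Il34, which maintains Langerhans cells, was at 24.2 and 1.08 CPM (−4.49), Ccl20 at 22.4 and 0.18 CPM and Defb6 at 763 and 10.6 CPM (−6.16). Lgr5, a follicle stem cell gene, was at 50.5 and 3.06 CPM (−4.04).

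Lipid genes were divided. Of 16 measured genes of barrier lipid synthesis 5 were higher and 3 lower (median 0.50). Fabp5, an epidermal fatty acid binding protein, was at 456 and 4346 CPM (3.25), the fatty acid hydroxylase Fa2h at 81.1 and 596 CPM (2.88) and Elovl4, which makes very long fatty acids, at 8.01 and 201 CPM (4.65). These values rested on few cells, since 5 cells held 60.2%, 64.7% and 84.1% of the MC903 UMIs. Cyp17a1, a steroid hydroxylase, was at 0.722 and 93.5 CPM (7.02) and was more widely spread, in 60 of 125 cells, and Lcn2 was at 9.48 and 157 CPM in 89 cells. Interferon-stimulated genes were higher in 8 and lower in 1, Irf1, of 12, but Iigp1 was in 3 and Isg15 in 8 MC903 cells.

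Several measures of cell state and of other cells moved with these values. Of the 18 genes induced by tissue dissociation 14 were lower and 0 higher, with Nr4a1 at 233 and 27.4 CPM and Atf3 at 686 and 116 CPM. The gate's leading genes in untreated skin included Defb6, Ly6d and Krt15, and with MC903 they included Krt79, a keratin of the upper follicle. Neutrophil markers summed to 1.07 and 115 CPM, all 6 at least 2-fold higher, and basophil markers to 0.502 and 13.5 CPM. Fibroblast markers summed to 254 and 27.6 CPM, with 5 of 6 at least 2-fold lower. Collagen and matrix genes were lower in 22 and higher in 1 of 24, against 17.9% lower and 5.33% higher among all genes. The part of these other cells in the differences was not tested.

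Cells of cartilage, nerve and vessel differed as well. In the chondrocyte gate (539 and 170 cells), where 5.73% of measured genes were higher and 11.8% lower, Pdk4, which turns cells from glucose to fat as fuel, was at 13.9 and 249 CPM (log2 ratio 4.17, in 40 and 140 cells) and the lipase inhibitor Angptl4 at 3.00 and 94.0 CPM (4.97). Idi1, an enzyme of isoprenoid and cholesterol synthesis, was at 139 and 13.3 CPM in this gate, and in the Schwann gate (117 and 233 cells) Hmgcs1 was at 750 and 123 CPM and Msmo1 at 455 and 70.8 CPM, both of cholesterol synthesis, for which no list was counted. Cells set apart by at least 2 UMIs of Angptl7, a secreted protein of perichondrium-like cells, were 168 (2.18%) and 228 (5.93%). In them Osmr was at 48.0 and 241 CPM (2.33, in 63 and 200 cells). Osmr was also higher in the chondrocyte gate (73.0 and 335 CPM, 2.20), as was complement C3 in both (27.9 and 417 CPM, and 52.4 and 504 CPM). Complement genes were higher in 5 and lower in 0 of 8 in the chondrocyte gate and in 7 and 0 of 9 in Angptl7 cells, where 7.58% of all genes were higher and 10.9% lower. In Angptl7 cells the chondrocyte markers summed to 2020 and 416 CPM, with 6 of 6 lower, and the neutrophil markers to 0 and 104 CPM, and their part in the result was not tested. Ccl24, Arg1 and Ccl2, among the highest ratios of the chondrocyte gate, came from 6, 7 and 4 cells.

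In the Schwann gate 6.94% of measured genes were higher and 8.88% (666) lower, but 404 were lower after TMM scaling, which raised the log2 ratios by 0.21. There the lipocalin Apod was at 286 and 3360 CPM (3.56, in 25 and 128 cells) and Lox at 29.1 and 310 CPM. Mural markers in that gate summed to 117 and 576 CPM, with Acta2 in 9 cells, and their part in the result was not tested. Of 18 dissociation stress genes 9 were lower and 0 higher in the Schwann gate. In the mural gate (257 and 201 cells), where 3.33% of genes were higher and 7.41% lower, the endothelin receptor Ednrb was at 15.4 and 377 CPM (4.62, in 18 and 69 cells), Ccn2, a target of mechanical signaling, at 62.9 and 578 CPM and Ccl11 at 76.4 and 218 CPM (1.51). Contractile genes there were higher in 0 and lower in 0 of 11, and Cxcl9 rested on 11 cells, of which 5 held 98.0%. In the gamma delta T gate (595 and 57 cells) Areg, an EGF receptor ligand of skin T cells, was at 345 and 231 CPM (−0.58), the adhesion protein Emb at 221 and 1514 CPM and Elovl6 at 157 and 866 CPM (2.46). Dissociation stress genes were lower in 10 and higher in 0 of 18 in that gate, against 13.4% lower and 7.27% (719) higher among all genes (425 higher after TMM scaling), and the dendritic markers summed to 147 and 5.91 CPM. The gate of ILC2 markers (116 and 94 cells), where 7.87% of genes were higher and 5.54% lower, had Il5 at 242 and 1.92 CPM. In untreated skin 5 cells held 96.6% of the gate's Il5 UMIs. With MC903 this gate was led by Gzmc and held 1 of its own markers among its 10 leading genes. That count was 0 in the fibroblast and macrophage gates with MC903. In the ILC2 gate alpha beta T markers summed to 669 and 768 CPM and gamma delta T markers to 287 and 321 CPM. Its cells are therefore not named as ILC2-like in either library.

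**Figure D5:**
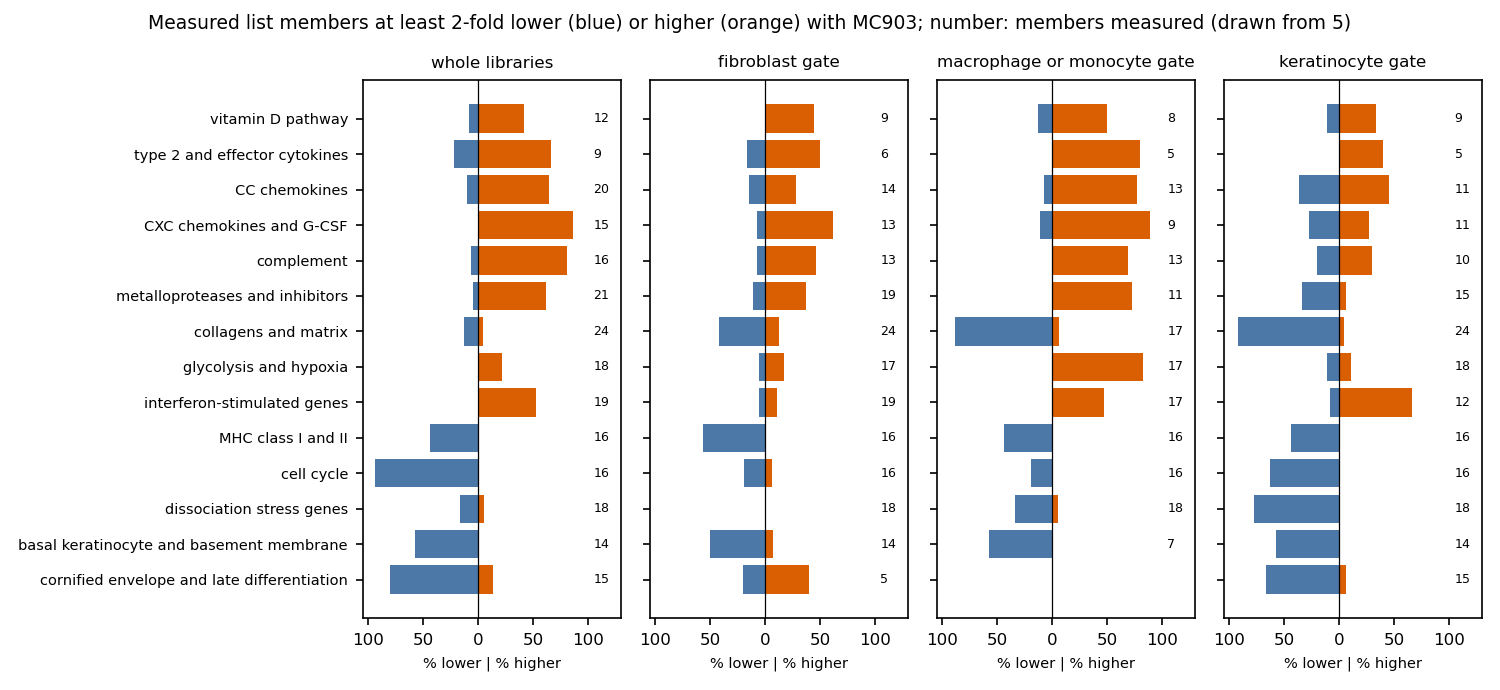
Share of the measured members of 14 gene lists at least 2-fold lower (blue, to the left) or higher (orange, to the right) with MC903, in percent, for the whole libraries and 3 gates, with the number measured beside each bar and lists drawn where at least 5 members were measured. Glycolysis and hypoxia genes stand out in the macrophage gate (14 of 17 higher). Dissociation stress genes stand out in the keratinocyte gate (14 of 18 lower, against 0 of 18 in the fibroblast gate). In the macrophage gate 6 of these 18 were lower and 1 higher. The CXC list also holds Csf1 and Il34. More collagen and matrix genes are lower than higher in each of the 3 gates. Fibroblast markers were lower too in the macrophage (730 and 31.4 CPM) and keratinocyte gates (254 and 27.6 CPM), and their part was not tested.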

How the data were processed

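The deposited files hold raw UMI counts per gene and called barcode, made with Cell Ranger 7.2.0 (untreated) and 8.0.0 (MC903) per the file headers and Cell Ranger 8.0 with mm10 per the submitters' processing notes. For annotation and intronic reads, the sources used here give no details. Barcodes under 300 genes or over 15% mitochondrial UMIs were left out (53 of 7755 untreated, 342 of 4185 MC903), and 32285 gene identifiers were read. Counts were summed per library and per marker gate (24 classes, and Angptl7 cells set apart within the fibroblast and chondrocyte gates) with at least 50 cells in both libraries, which left 9 gates. CPM ratios have exact conditional binomial intervals, shares Clopper-Pearson intervals at 95%. A zero was set to 3 UMIs over the group, and such a ratio is a bound. Doublets were kept. The 38 gene lists, the markers and the comparison were chosen with earlier results of these data known. Named genes are the 15 highest and 15 lowest ratios of the whole libraries and the 8 of a gate, over genes whose higher side had 200 or more UMIs, up to 4 largest per list, and a fixed set of cytokines and receptors. Mitochondrial, ribosomal, hemoglobin, receptor segment, predicted and sex-linked genes did not enter the first 2 of these. Members named only to spell out a count of 5 or fewer were picked after their values were seen. Whole libraries were also simulated from a pooled profile with counting noise only (19518 genes, 200 changed 4-fold, log2 2). There 100% of changed genes were recovered, 0.295% of the others were called and intervals covered 95.3%. The simulation had no spread between cells, mice or libraries. These values therefore check the computation and give no error rate for the real comparison. Alternatives were 4 of 6 markers, thinning each cell to 3000 UMIs with 2 markers, Scrublet doublet removal at 0.8% per 1000 barcodes (475 and 118 cells), equal weight per cell, 5% of free RNA taken off, TMM scaling (edgeR 4.0.16), 100 UMIs, 10% mitochondrial UMIs and 3-fold. Python 3.11.15, scipy 1.17.1 and scanpy 1.11.5 were used. Some genes that meet the rule are not reported here.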

Additional observations from a re-analysis of the deposited data

How the results depend on the processing

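No paired analysis was possible because each group was 1 library. None of 1118 values of named genes under the alternatives changed direction, 933 stayed within their interval and 185 moved beyond it. Counts of genes higher and lower in the whole libraries were 2426 and 2413 at 2-fold and 1343 and 1194 at 3-fold. With at least 100 UMIs required, the counts higher and lower were 878 and 1200 in fibroblasts (1337 and 1843 at 30), 423 and 665 in chondrocytes (670 and 1380), 199 and 173 in Schwann (520 and 666), 174 and 192 in mural (330 and 734), 360 and 596 in gamma delta T (719 and 1329) and 176 and 117 in ILC2 gates (560 and 394), with 447 higher in keratinocytes (762), 650 lower in macrophages (1305) and 596 lower in Angptl7 cells (1227). Fewer genes were counted at 100 UMIs, and the share of them called was smaller too in each of these comparisons. In the mural gate, for example, 192 of 6254 genes were lower, against 734 of 9902 at 30 UMIs. TMM scaling gave 404 lower in Schwann and 425 higher in gamma delta T gates, and thinning 647 lower in ILC2, a gate led by Gzmc from 4 cells with MC903. In fibroblasts, equal weight per cell left 4 metalloproteases (7) and 1 matrix gene (3) higher, and 1 metalloprotease (2) was lower with doublets removed or at 100 UMIs. The 1 higher cornified gene of keratinocytes became 0 with doublets removed, at 100 UMIs or after thinning, and the 6 lower IL-4 response genes of macrophages became 3 at 100 UMIs. Requiring 4 of 6 markers gave shares of 24.7% and 27.0% for fibroblasts, 3.09% for untreated macrophages, 1.96% for untreated melanocytes, and 3.38% and 4.76% for chondrocytes and Angptl7 cells with MC903, and the basophil gate then held 49.5% of Il4 and 55.8% of Il13, the fibroblast gate 50.1% of Cyp24a1 and the macrophage gate 41.9% of Osm. Thinning gave 30.1% and 32.5% for fibroblasts, 26.4% for untreated keratinocytes, 1.45% and 4.03% for Angptl7 cells, 1.68% for untreated melanocytes and 1.80% for alpha beta T cells with MC903. With doublets removed the untreated basophil share was 0.0277%. The causes of the shifts in shares were not tested. Gates of 57 (gamma delta T) or 125 cells (keratinocyte, MC903) limit what can be seen there.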
